A study of Homo sapiens with 2 samples.

Results

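Genes for the proteins that choose splice sites were examined in MDA-MB-231 cells, an established line from a human breast cancer, after depletion of the junction scaffold MPP7. A gene was included when the name in the deposited table belonged to the SRSF, TRA2, HNRNP, PTBP, U2AF, SF3A or SF3B families, and pseudogene names (a final P with digits) were left out. PTBP1, PTBP2 and PTBP3 end in a P and a digit too, but they are functional genes and were kept. This gave 53 genes of the 58233 in the table, or 50 without the PTBP genes, and 124 pseudogene lines were left out. One stable line, shMPP7, carried a lentiviral hairpin against MPP7, and the other, shCon, a control hairpin whose sequence the labels do not give. Virus was added at 10 infectious units per cell, medium was replaced at 12 h, and puromycin selection lasted 7 days. Total RNA of each line gave 1 library. The differences have no replicate check and no p-value, and the 95% intervals in parentheses describe counting error alone.

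SR proteins bind exonic sequences through RNA recognition motifs and recruit the splicing machinery through domains rich in arginine and serine. The hnRNP proteins coat nascent RNA and often oppose exon inclusion, and PTB proteins bind pyrimidine tracts near exons. U2AF recognises the end of the intron, and the SF3A and SF3B complexes anchor the U2 particle at the branch point. Many SR and hnRNP genes control their own level through a poison exon, an alternative exon that brings a premature stop and sends the transcript to nonsense-mediated decay. Reads of such isoforms count toward the gene but change the transcript length that FPKM assumes, so counts and FPKM were both used.

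The library totals were 24513089 estimated counts in shMPP7 and 23928620 in shCon. MPP7 had 21 counts in shMPP7 and 42 in shCon, a ratio of 0.488 (0.275 to 0.843) in CPM, the count relative to the library total. Its FPKM was 0.316 in shMPP7 and 0.5 in shCon. With 63 counts over both libraries, MPP7 was short of the count and FPKM minimums applied to the other genes. The cell line's usual markers were as follows. The mesenchymal gene VIM had 3317 FPKM in shMPP7 and 2791 in shCon, and the epithelial CDH1 had 1 count in shMPP7 and 3 in shCon. The hormone receptor ESR1 had 0 counts in shMPP7 and 3 in shCon, and EPCAM was detected, with 148 counts in shMPP7 and 165 in shCon. Markers of other cells (PTPRC, CD3E, CDH5, DCN and LUM) had at most 5 counts in either library, while PECAM1 had 73 in shMPP7 and 68 in shCon.

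Splicing factor transcripts were nearly equal in the shMPP7 and shCon libraries. Of the 53 genes, 47 reached the minimum of 100 counts over both libraries and also the minimum mean of 1 FPKM, a unit of fragments relative to transcript length and library size. Together the 53 genes took 1.44% of all counts in shMPP7 and 1.46% in shCon. The CPM ratio of shMPP7 to shCon ranged from 0.803 for PTBP3 to 1.13 for SRSF9. The median log2 CPM ratio was -0.0041 over the 47 genes and -0.02 over the 12155 genes in the table with at least 100 counts. There were 23 members above 0 and 24 below, against 5349 above and 6806 below among the 12155 genes. With TMM, median-of-ratios or upper-quartile scaling the members' median lay above 0, at 0.021, 0.026 and 0.029. Each scaling moves all genes by nearly the same amount, so the distance of the members from the median over all genes hardly changes. A fold of 1.2 was passed by 1 member in the lower direction, PTBP3, and by 0 in the higher direction. Over all 12155 genes 11.2% were lower and 4.44% higher by that fold. Most members are counted deeply. Of 5022 protein-coding genes that reached 2000 counts, 201 were lower and 39 higher by 1.2-fold (a minimum chosen after the values were seen). Of the 45 members that reached it, 1 was lower and 0 were higher. In FPKM 0 members passed the fold in either direction, against 11.2% higher and 10.2% lower over the 12933 genes that reached the FPKM minimum. Of the 5022 deeply counted genes, 254 were higher and 179 lower by that fold in FPKM. The median log2 FPKM ratio was 0.037 over the members and 0.041 over the 12933 genes.

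**Figure D1:**
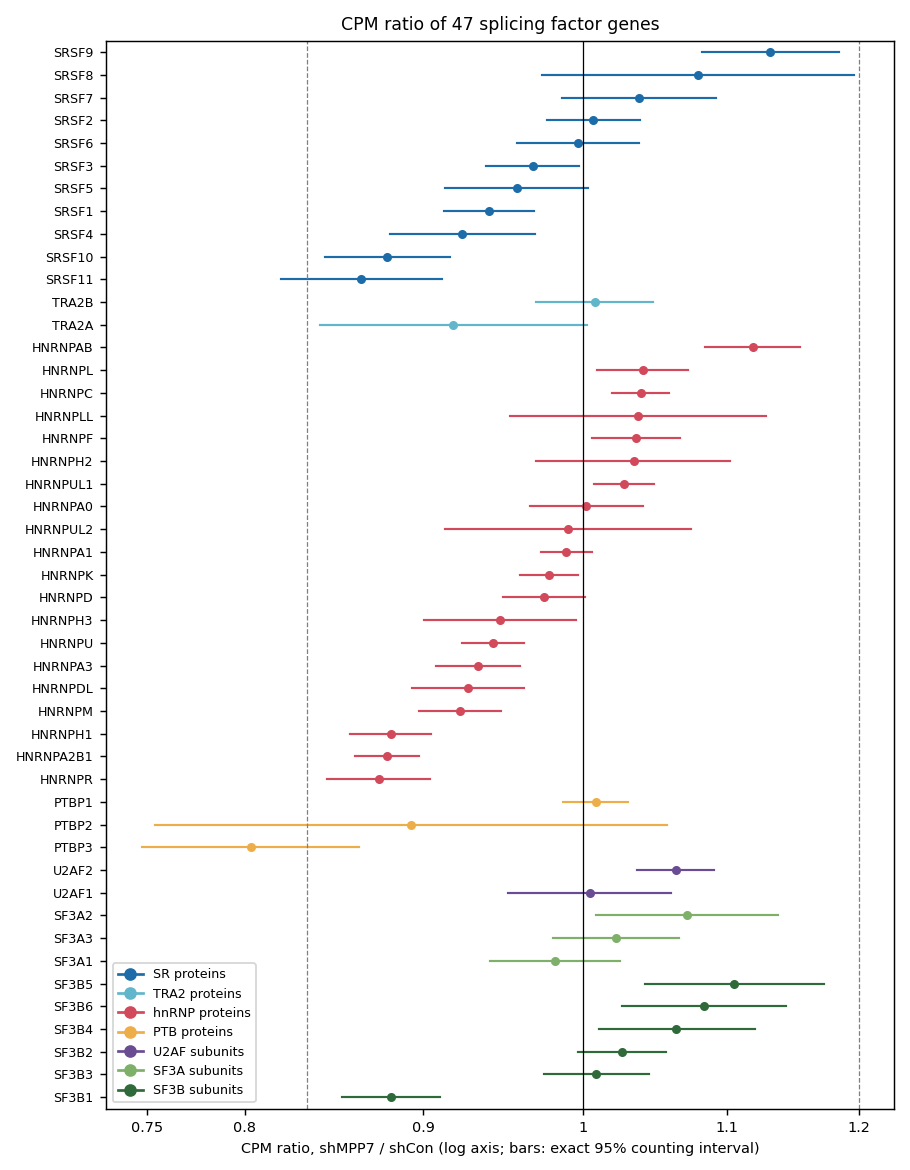
CPM ratio of shMPP7 to shCon (log axis) for the 47 genes with at least 100 counts, with exact 95% intervals for counting error, grouped by family. Dashed lines mark a fold of 1.2, and PTBP3 at 0.803 is the only point beyond them.

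At a fold of 1.1, 3 members were higher (HNRNPAB, SF3B5 and SRSF9) and 8 lower (HNRNPA2B1, HNRNPH1, HNRNPR, PTBP2, PTBP3, SF3B1, SRSF10 and SRSF11). Over all genes 13.4% were higher and 25.6% lower by this fold. Of the 45 deeply counted members 6.67% were higher and 15.6% lower, and of the 5022 deeply counted genes 7.33% were higher and 15.1% lower, so the members' shares were near the background. In FPKM 9 members were higher and 4 lower by 1.1-fold, against 28.1% and 20.1% of all genes. At 1.5-fold 0 members were lower in CPM, against 1.04% of all genes. The counting interval lay above 1 for 11 members and below 1 for 16, against 13.8% and 21.5% of all genes. Of the 45 deeply counted members these were 24.4% above and 35.6% below, and of the deeply counted genes 21.5% above and 24.7% below.

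Promoters of the genes at both ends of the range are shown so that they can be set beside the values that follow. Each runs from 250 bases before to 50 bases after the transcription start in RefSeq (GRCh38.p14), 5′ to 3′ on the strand of the gene. Capitals mark the GC box, GGGCGG or its reverse complement CCGCCC.
SRSF9, among the highest ratios:
SRSF9 (chr12:120469699-120469998, minus strand): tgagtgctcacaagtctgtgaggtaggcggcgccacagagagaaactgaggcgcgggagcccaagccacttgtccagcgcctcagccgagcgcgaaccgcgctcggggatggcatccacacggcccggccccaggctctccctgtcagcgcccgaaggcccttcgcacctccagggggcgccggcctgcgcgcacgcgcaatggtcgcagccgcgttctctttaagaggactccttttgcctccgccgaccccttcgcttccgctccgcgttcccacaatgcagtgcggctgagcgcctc
HNRNPAB (chr5:178204283-178204582, plus strand): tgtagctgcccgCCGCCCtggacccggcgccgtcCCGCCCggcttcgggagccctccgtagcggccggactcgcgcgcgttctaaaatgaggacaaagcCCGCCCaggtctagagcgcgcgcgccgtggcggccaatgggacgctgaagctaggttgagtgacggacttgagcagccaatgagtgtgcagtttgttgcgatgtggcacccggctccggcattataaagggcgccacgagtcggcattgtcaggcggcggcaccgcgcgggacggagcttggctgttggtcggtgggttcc
And among the lowest ratios:
PTBP3 (chr9:112332977-112333276, minus strand): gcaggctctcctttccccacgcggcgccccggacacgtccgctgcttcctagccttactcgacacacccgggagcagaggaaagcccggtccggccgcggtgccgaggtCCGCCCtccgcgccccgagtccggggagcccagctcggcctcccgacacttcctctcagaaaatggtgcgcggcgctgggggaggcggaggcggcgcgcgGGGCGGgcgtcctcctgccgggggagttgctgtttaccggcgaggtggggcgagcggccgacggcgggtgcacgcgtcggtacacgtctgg
SRSF11 (chr1:70221130-70221429, plus strand): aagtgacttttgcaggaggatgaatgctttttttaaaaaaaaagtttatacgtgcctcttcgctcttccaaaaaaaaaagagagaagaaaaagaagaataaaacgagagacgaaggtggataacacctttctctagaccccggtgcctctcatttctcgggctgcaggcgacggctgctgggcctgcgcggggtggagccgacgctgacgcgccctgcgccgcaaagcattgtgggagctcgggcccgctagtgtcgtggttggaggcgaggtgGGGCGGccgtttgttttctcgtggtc
A GC box occurred in 31 of the 43 members that had a promoter in the table and at least 100 counts (72.1%), against 58.5% of 15843 promoters of protein-coding genes and 44.6% of all 27305. It was present in HNRNPAB, PTBP3 and SRSF11 and not in this window of SRSF9. The RefSeq starts of the genes shown lie inside the longer GENCODE spans given further on. The distance was largest for SRSF11, followed by PTBP3. The ETS-type letters CCGGAAG, on either strand, occurred in 27.9% of the members and 14.2% of the protein-coding genes. TATAAA occurred in 11.6% and 9.63%, and CCAAT in 39.5% and 36.4%. The median GC content of the windows was 65% for members and 62.67% for protein-coding genes.

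The SR genes spread to both sides of equality. Of 12 SRSF genes 11 were measured, 4 with a log2 CPM ratio above 0 and 7 below it, and their median was -0.048 (0.012 with a trend over transcript length and GC content removed, as described further on). Summed over the family, SR transcripts took 2115 CPM in shMPP7 and 2179 CPM in shCon. SRSF12, a member with restricted expression, was listed at 0 in both libraries, which allows up to 0.122 CPM in shMPP7 and 0.125 in shCon.

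SRSF9 (ENSG00000111786, chromosome 12, positions 120461668 to 120469793 of GRCh38, minus strand) had the highest ratio of all members. It had 4068 counts in shMPP7 and 3508 in shCon, a CPM ratio of 1.13 (1.08 to 1.18). In FPKM it stood at 192 in shMPP7 and 161 in shCon. SRSF9 is one of the shorter SR proteins and is related in sequence to SRSF1. SRSF1, the founding member of the family, had 8749 counts in shMPP7 and 9085 in shCon, a ratio of 0.940 (0.913 to 0.968). Its FPKM was 197 in each library, a log2 ratio of 0.0022, below the median of 0.041 over all genes.

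SRSF11 and SRSF10 were the lowest SR genes. SRSF11 (ENSG00000116754, chromosome 1, positions 70205682 to 70253052, plus strand) had 2597 counts in shMPP7 and 2934 in shCon, a ratio of 0.864 (0.819 to 0.911). Its FPKM was 62.9 in shMPP7 and 66.8 in shCon. SRSF10, an SR protein that acts as a splicing repressor when dephosphorylated, had a ratio of 0.879 (0.843 to 0.916). It stood at 105 FPKM in shMPP7 and 111 in shCon. SRSF4, a longer SR protein, was at 0.924 (0.880 to 0.969), and its relatives SRSF5 and SRSF6 were at 0.958 (0.913 to 1.00) and 0.997 (0.958 to 1.04).

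SRSF2, SRSF3 and SRSF7, 3 of the SR genes known for poison exons, lay close to 1. SRSF2, an exon definition factor mutated in myeloid cancers, had 8361 counts in shMPP7 and 8103 in shCon, a ratio of 1.01 (0.977 to 1.04). SRSF3, the smallest SR protein, had 8255 counts in shMPP7 and 8329 in shCon, a ratio of 0.967 (0.938 to 0.998). SRSF7, which also acts in RNA export, had 3110 counts in shMPP7 and 2924 in shCon, a ratio of 1.04 (0.987 to 1.09). SRSF2 had 369 FPKM in shMPP7 and 351 in shCon, SRSF3 had 265 in shMPP7 and 270 in shCon, and SRSF7 had 121 in shMPP7 and 110 in shCon. The direction was the same in counts and FPKM for each of these 3 genes. It differed for SRSF1, at -0.089 in log2 CPM ratio and 0.0022 in log2 FPKM ratio. SRSF6, at -0.0041 and 0.072, and SRSF8, described further on, also changed sign. Over all genes the log2 FPKM ratio exceeded the log2 CPM ratio by a median of 0.058. Against the medians over all genes, -0.02 in CPM and 0.041 in FPKM, SRSF1 was below and SRSF6 above in both units. TRA2A and TRA2B, SR-like proteins that bind GAA-rich exon sequences and regulate each other, had ratios of 0.918 (0.841 to 1.00) and 1.01 (0.970 to 1.05). TRA2A had 33.1 FPKM in shMPP7 and 34.8 in shCon, and TRA2B 157 in shMPP7 and 148 in shCon.

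**Figure D2:**
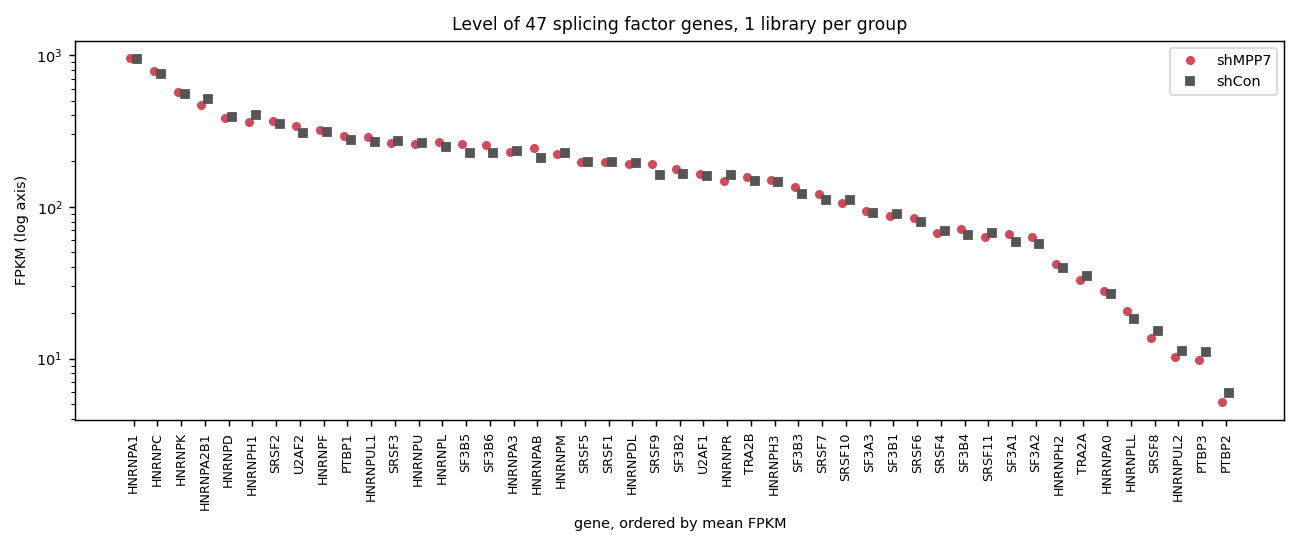
FPKM (log axis) of the 47 measured genes in the shMPP7 library (circles) and the shCon library (squares), ordered by the mean of both. HNRNPA1 is highest, at 957 FPKM in shMPP7 and 939 in shCon, PTBP2 is lowest, and the symbols of a gene lie close together throughout.

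The most abundant of the splicing factors per transcript length were hnRNP genes. The order in FPKM began with HNRNPA1, at 957 in shMPP7 and 939 in shCon, followed by HNRNPC at 784 in shMPP7 and 753 in shCon. HNRNPK came next with 570 FPKM in shMPP7 and 551 in shCon, then HNRNPA2B1 with 471 in shMPP7 and 513 in shCon. HNRNPD had 383 FPKM in shMPP7 and 392 in shCon, and HNRNPH1, which was below it in shMPP7 and above it in shCon, had 363 in shMPP7 and 401 in shCon. With 1 library per group, no spread is available to say which neighbours in this order differ.

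Of 25 hnRNP genes 20 were measured, 8 above 0 and 12 below in log2 CPM ratio, with a median of -0.024. That median changed sign with the scaling, to 0.0015 with TMM factors, 0.0059 with median-of-ratios factors and 0.0093 with the upper quartile. Summed, hnRNP transcripts took 8853 CPM in shMPP7 and 9091 in shCon. HNRNPCL1 to HNRNPCL4, intronless copies of HNRNPC, were listed at 0 in both libraries. HNRNPA1L2, a copy of HNRNPA1, had 15.3 counts in shMPP7 and 17.0 in shCon.

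Among the A and B types, HNRNPAB had the highest ratio. This gene (ENSG00000197451, chromosome 5, positions 178204507 to 178211163, plus strand) had 8344 counts in shMPP7 and 7280 in shCon, a ratio of 1.12 (1.08 to 1.15). Its FPKM was 244 in shMPP7 and 210 in shCon. HNRNPA2B1, a packaging protein that also sorts RNA, had 16475 counts in shMPP7 and 18295 in shCon, a ratio of 0.879 (0.861 to 0.898). HNRNPA1, a classical exon repressor, had 27146 counts in shMPP7 and 26786 in shCon. Its ratio was 0.989 (0.973 to 1.01), and it lay above 1 with TMM, median-of-ratios or upper-quartile scaling. HNRNPA3 was at 0.933 (0.908 to 0.960) and HNRNPA0 at 1.00 (0.966 to 1.04).

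Members of the same subfamily lay on different sides of 1. HNRNPH1, HNRNPH2 and HNRNPF bind runs of G. HNRNPH1 had 10357 counts in shMPP7 and 11478 in shCon, a ratio of 0.881 (0.858 to 0.905), whereas HNRNPH2 was at 1.03 (0.970 to 1.102) and HNRNPF at 1.04 (1.01 to 1.07). HNRNPH3 was at 0.947 (0.900 to 0.996). HNRNPR, a relative of SYNCRIP, had 6330 counts in shMPP7 and 7070 in shCon, a ratio of 0.874 (0.845 to 0.904), the lowest of the hnRNP genes. Its FPKM was 148 in shMPP7 and 162 in shCon.

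HNRNPC, which binds U-rich tracts, was at 1.04 (1.02 to 1.06), and HNRNPL, which binds CA repeats, at 1.04 (1.01 to 1.07). HNRNPLL, a paralog of HNRNPL known for CD45 splicing in T cells, was at 1.04 (0.953 to 1.13) with 20.7 FPKM in shMPP7 and 18.4 in shCon. HNRNPK, a binder of C-rich tracts, had a ratio of 0.978 (0.959 to 0.997) in CPM and a log2 FPKM ratio of 0.047, near the median of 0.041 over all genes. HNRNPD, which promotes decay of AU-rich mRNAs, was at 0.975 (0.949 to 1.00). Its paralog HNRNPDL, which also regulates its own level through splicing, had 5453 counts in shMPP7 and 5741 in shCon, a ratio of 0.927 (0.893 to 0.962), and 191 FPKM in shMPP7 and 195 in shCon. HNRNPM stood at 0.922 (0.898 to 0.948) and HNRNPU, a nuclear scaffold protein, at 0.943 (0.923 to 0.962). The related HNRNPUL1 was at 1.03 (1.01 to 1.05) and HNRNPUL2 at 0.990 (0.913 to 1.07).

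PTBP3 was the member with the lowest ratio, and the only one past 1.2-fold. The gene (ENSG00000119314, chromosome 9, positions 112217716 to 112333667, minus strand) had 1384 counts in shMPP7 and 1682 in shCon, a ratio of 0.803 (0.748 to 0.863). Its FPKM was 9.72 in shMPP7 and 11.1 in shCon, a log2 ratio of -0.17, which is short of that fold. With the length and GC trend removed its log2 CPM ratio was -0.13, also short of it. PTBP1, the broadly expressed pyrimidine tract binder, had 17515 counts in shMPP7 and 16952 in shCon, a ratio of 1.01 (0.987 to 1.03). PTBP2, the paralog best known from neurons, had 268 counts in shMPP7 and 293 in shCon, a ratio of 0.893 (0.754 to 1.06). Its log2 CPM ratio was -0.16 as measured and 0.091 with the trend removed. The paralogs also differed widely in level. PTBP1 had 295 FPKM in shMPP7 and 278 in shCon, and PTBP2 had 5.15 in shMPP7 and 5.97 in shCon, with PTBP3 closer to PTBP2.

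The U2AF subunits were at or slightly above equality. U2AF2, the large subunit that binds the pyrimidine tract, had 12605 counts in shMPP7 and 11570 in shCon, a ratio of 1.06 (1.04 to 1.09). It stood at 342 FPKM in shMPP7 and 305 in shCon. Its log2 CPM ratio was 0.089 as measured and -0.0020 with the length and GC trend removed. U2AF1, the small subunit that reads the terminal AG, had 2716 counts in shMPP7 and 2639 in shCon, a ratio of 1.00 (0.952 to 1.06). U2AF1L5, listed as a separate gene, had 191 counts in shMPP7 and 181 in shCon, and reads of such a close copy may be divided between the lines.

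The subunits of SF3A and SF3B were mostly above equality, and SF3B1 was the lowest. Of the 9 genes 7 had a log2 CPM ratio above 0, with a median of 0.038, but 4 and -0.012 with the length and GC trend removed. SF3B1, the branch point subunit that is recurrently mutated in leukaemia and breast cancer, had 6982 counts in shMPP7 and 7734 in shCon, a ratio of 0.881 (0.853 to 0.910). Its FPKM was 86.5 in shMPP7 and 89.6 in shCon. SF3B5, a small subunit, had 2401 counts in shMPP7 and 2120 in shCon, a ratio of 1.11 (1.04 to 1.17). SF3B6, which contacts the branch point adenosine, had 2811 counts in shMPP7 and 2533 in shCon, a ratio of 1.08 (1.03 to 1.14). SF3A2 was at 1.07 (1.01 to 1.14) and SF3B4 at 1.06 (1.01 to 1.12). SF3B2 at 1.03 (0.997 to 1.06), SF3A3 at 1.02 (0.981 to 1.07), SF3B3 at 1.01 (0.975 to 1.04) and SF3A1 at 0.982 (0.941 to 1.02) completed the 9 genes. Summed over these 9 genes, the CPM was 1726 in shMPP7 and 1719 in shCon. PHF5A, an SF3B subunit whose name is outside the pattern, was at 1.09 (1.002 to 1.19). It is counted further on in the list of Sm, U1 and U2 proteins.

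**Figure D3:**
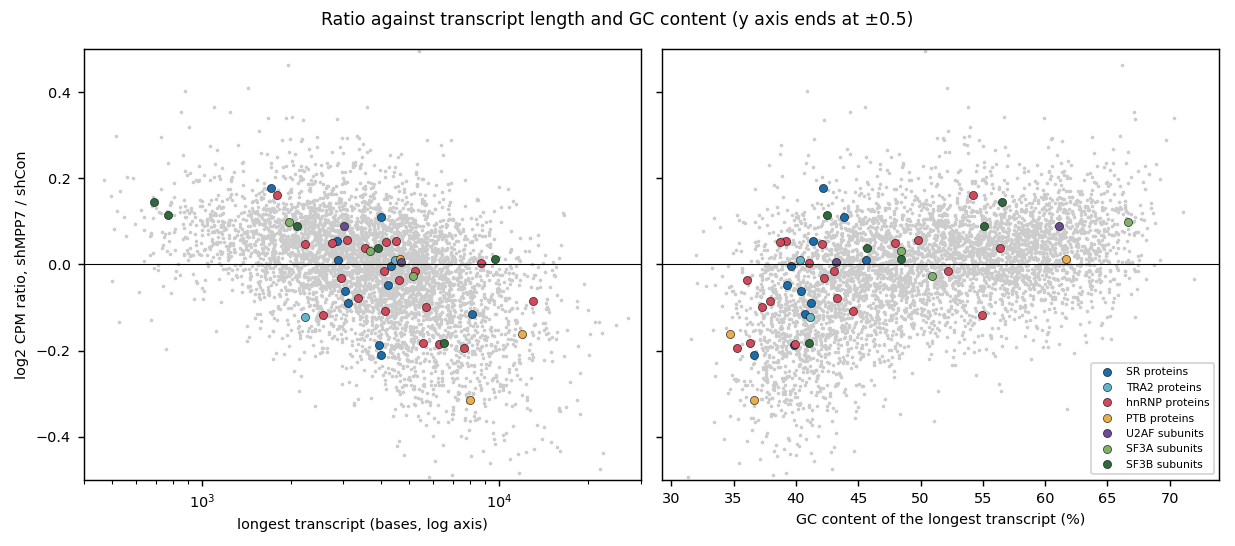
Log2 CPM ratio of shMPP7 to shCon against the length (left, log axis) and the GC content (right) of the longest transcript of each gene. Coloured points are the 47 splicing factor genes, grey points protein-coding genes that reached 2000 counts, and long or AT-rich transcripts lie lower in both sets.

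Transcript length and base composition moved with these ratios. Across the 47 members Spearman's rho of the log2 CPM ratio was -0.57 with the length of the longest GENCODE 29 transcript and 0.60 with its GC content. Across 11165 protein-coding genes it was -0.36 and 0.44. Those genes include thinly counted ones, so the coefficients are not matched to the members in depth. These are descriptions across genes that share the same 2 libraries, and genes are not independent replicates. Of 24 members with a GC content at or below 42.1%, 7 had a log2 CPM ratio above 0, and of 23 members above it 16 did. PTBP3 had a longest transcript of 7995 bases with 36.6% GC, HNRNPR of 7646 bases with 35.3% GC and SF3B1 of 6526 bases with 41.0% GC. By contrast SF3B5 had 693 bases with 56.6% GC and HNRNPAB 1796 bases with 54.2% GC. The length implied by CPM over FPKM was shorter for each of these genes. For HNRNPR it was 1.74 kb in shMPP7 and 1.82 kb in shCon. For SF3B1 it was 3.29 kb in shMPP7 and 3.61 kb in shCon. The trend removed below rests on the annotated lengths, not on the implied ones.

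With the trend over protein-coding genes subtracted, the log2 CPM ratio was -0.13 for PTBP3, where it was -0.32 as measured. For HNRNPR it was 0.0080 (-0.19 as measured), for SF3B1 -0.078 (-0.18), for SF3B5 -0.023 (0.14) and for HNRNPAB 0.055 (0.16). SRSF9, of 1704 bases with 42.1% GC, was at 0.17 with the trend removed and 0.18 as measured. The median changed sign for the SR genes, to 0.012, for the hnRNP genes, to 0.014, and for the SF3 genes, to -0.012. Over all genes the median with the trend removed was -0.035, so these 3 medians lay above it. The part of length and GC content in the ratios was not tested further.

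Counts and FPKM gave similar ratios, and SRSF8 differed most between the units. Over the members the log2 FPKM ratio exceeded the log2 CPM ratio by a median of 0.062, and over 11886 genes measured in both units by 0.058, so the offset was near that of all genes. The units disagreed by at least 1.2-fold for 1 of 47 members, against 9.03% of all genes, and by at least 1.1-fold for 4 members, against 25.9%. At 1.5-fold it was 0 members, against 1.16%. All genes include thinly counted ones, so these shares are not matched to the members in depth.

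SRSF8 (ENSG00000263465, chromosome 11, positions 95067197 to 95071224, plus strand) is a retroposed relative of SRSF2. It had 786 counts in shMPP7 and 711 in shCon, a CPM ratio of 1.08 (0.974 to 1.196). In FPKM it was lower, with 13.6 in shMPP7 and 15.2 in shCon, a log2 ratio of -0.15. The length implied by CPM over FPKM was 2.36 kb in shMPP7 and 1.95 kb in shCon. Its count was fractional in shMPP7 and whole in shCon.

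SF3A1, SF3B3 and PTBP3 were the other 3 past 1.1-fold between units, all with the FPKM ratio above the CPM ratio. SF3A1 had 66.6 FPKM in shMPP7 and 58.6 in shCon, a log2 ratio of 0.18 where counts gave -0.026. The implied length was 2.61 kb in shMPP7 and 3.02 kb in shCon. SF3B3 had 135 FPKM in shMPP7 and 121 in shCon, a log2 ratio of 0.16 where counts gave 0.013. For PTBP3 the implied length was 5.81 kb in shMPP7 and 6.35 kb in shCon. SF3B1 and SRSF11 followed, with differences of 0.13 each between the log2 ratios. The differences were 0.21 for SF3A1, 0.15 for SF3B3 and 0.14 for PTBP3. All of them include the offset of 0.058 found over all genes, and the implied lengths carry it too. HNRNPUL2 was short of 1.1-fold, but its difference of -0.093 ran opposite to that offset.

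GENCODE 29 lists at least 1 nonsense-mediated decay transcript for 32 of the 47 measured members. The 16 members with more than 1 such transcript had a median difference between units of 0.074, and the 31 others of 0.059, both near the 0.058 of all genes. HNRNPU has 9 such transcripts and a difference of 0.052, SRSF7 has 6 and 0.074, SRSF3 has 2 and 0.018. The largest positive differences were those of SF3A1 with 2 such transcripts (0.21), SF3B3 with 1 (0.15) and PTBP3 with 0 (0.14). SRSF8, with the largest negative difference (-0.26), has 1. All of these are values of whole genes, so the inclusion of poison exons itself was not measured here.

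**Figure D4:**
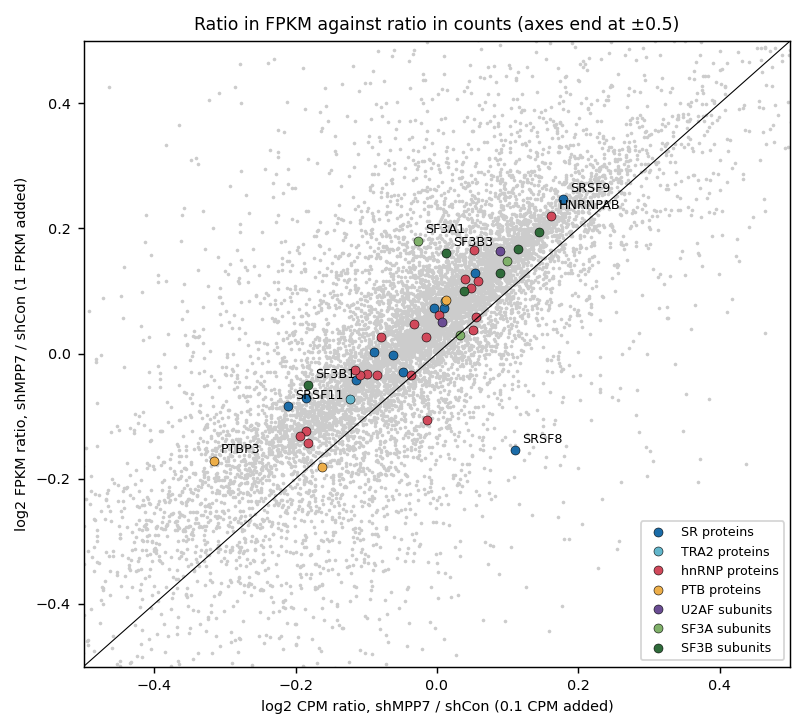
Log2 FPKM ratio (1 FPKM added) against log2 CPM ratio (0.1 CPM added), shMPP7 over shCon. Grey points are all genes measured in both units, coloured points the splicing factors, and SRSF8 lies below the line of equality while most other members lie slightly above it.

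Other genes of splicing and RNA quality control were set beside the members. They came from 6 lists written by hand with earlier results of these libraries known. They are given as counts and medians, in CPM unless FPKM is named. Of all 12155 genes 5349 had a log2 CPM ratio above 0 and 6806 below, so signs in the lists are to be read against that. SR-related nuclear proteins had the lowest median log2 CPM ratio, at -0.16, with 17 of 19 measured genes below 0, compared with -0.0041 in the members and -0.02 over all genes. Past 1.2-fold, 5 of the 19 were lower (BCLAF1, NKTR, PPIG, RSRC1 and SREK1) and 1 was higher (SRRM3, with few counts), against 11.2% and 4.44% of all genes. SREK1, a splicing regulatory protein of the SR type, had 1127 counts in shMPP7 and 1516 in shCon, a ratio of 0.725 (0.671 to 0.784). PPIG, a nuclear cyclophilin with an arginine and serine rich tail, was at 0.756 (0.689 to 0.829). The higher end held SCAF1 at 1.09 (1.05 to 1.14) and THRAP3 at 0.995 (0.958 to 1.03). These genes are long and AT-rich as well, with a median length of 4935 bases and 41.6% GC. Once the trend was removed the median was -0.069, against -0.035 over all genes. Of the 19 genes 16 were then below 0, and 1 was lower by 1.2-fold.

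The kinases that phosphorylate SR proteins, with regulators and the importer TNPO3, had a median of -0.11 over 10 genes, 8 of them below 0. Only DYRK1A was lower by 1.2-fold in CPM, against 11.2% of all genes. The count was 0 with median-of-ratios or upper-quartile scaling or with the length and GC trend removed. DYRK1A was at 0.818 (0.746 to 0.898) and CLK1, an SR protein kinase of the nucleus, at 0.863 (0.792 to 0.939). PPP1R8 at 1.03 (0.965 to 1.098) and CLK3 at 1.01 (0.925 to 1.1001) were the highest. In FPKM DYRK1A was short of the fold, at a log2 ratio of -0.23. The 1 gene lower by 1.2-fold in FPKM, against 10.2% of all genes, was SRPK1 (named after its values were seen). SRPK1 had 63.2 FPKM in shMPP7 and 76.3 in shCon, and a CPM ratio of 0.928 (0.895 to 0.962).

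The core particles stood close to the SF3 subunits. Of 19 genes for Sm, U1 and U2 proteins 16 were above 0, with a median of 0.033, and 1, DDX46, was lower by 1.2-fold, against 11.2% of all genes. SNRPA and SNRPC of the U1 particle were at 1.13 (1.07 to 1.1997) and 1.102 (1.06 to 1.14). DDX46, the helicase that works with SF3B1, was at 0.802 (0.761 to 0.845) and DHX15 at 0.939 (0.905 to 0.974). With the trend removed 10 of the 19 were above 0 and 0 were lower by 1.2-fold, DDX46 standing at -0.19 on the log2 scale. In FPKM 0 of the 19 passed the fold, against 11.2% of all genes higher and 10.2% lower. The 15 genes of the U5 and tri-snRNP particles had a median of 0.023, and 0 passed 1.2-fold in CPM. With the trend removed the median was -0.020, against -0.035 over all genes. In FPKM 1 was higher and 0 lower by 1.2-fold, against the same shares. The CPM ratios ranged from CD2BP2 at 0.940 (0.877 to 1.01) and DDX23 at 0.970 (0.923 to 1.02) to SNRNP27 at 1.105 (0.989 to 1.23) and TXNL4A at 1.11 (1.03 to 1.19).

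Factors of nonsense-mediated decay, the pathway that degrades poison exon isoforms, had a median of 0.019 over 16 genes, with 10 above 0. UPF2, the bridge between UPF1 and the exon junction complex, was lower by 1.2-fold, with 545 counts in shMPP7 and 697 in shCon and a ratio of 0.763 (0.681 to 0.855). SMG1, the kinase of UPF1, was lower too, at 0.790 (0.749 to 0.833). These 2 of 16 genes were near the background of 11.2% lower over all genes. With the length and GC trend removed UPF2 alone was past the fold, at -0.29 on the log2 scale, and SMG1 was at -0.18. In the higher direction 0 passed, but 1, MAGOHB (named after its values were seen), did with each of the other scalings and with the trend removed. UPF3A was at 1.11 (1.01 to 1.22) and MAGOH at 1.08 (0.982 to 1.18). In FPKM 3 of the 16 decay factors were higher and 2 lower by 1.2-fold, against 11.2% and 10.2% of all genes. Other splicing regulators had a median of -0.034 over 28 genes, with 3 lower and 1 higher by 1.2-fold, near the 11.2% and 4.44% of all genes. The lower genes were 2 with TMM scaling, and 1 with median-of-ratios or upper-quartile scaling or with the length and GC trend removed. MBNL1 and MBNL2, regulators of developmental splicing, were at 0.823 (0.780 to 0.869) and 0.806 (0.725 to 0.895). With the trend removed they were short of the fold, at -0.16 and -0.17 on the log2 scale. At the higher end were the hnRNP relatives RALY and PCBP1 at 1.12 (1.08 to 1.16) and 1.11 (1.08 to 1.14). The third lower gene was ESRP2 and the higher one KHDRBS3, both with few counts and named after their values were seen.

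**Figure D5:**
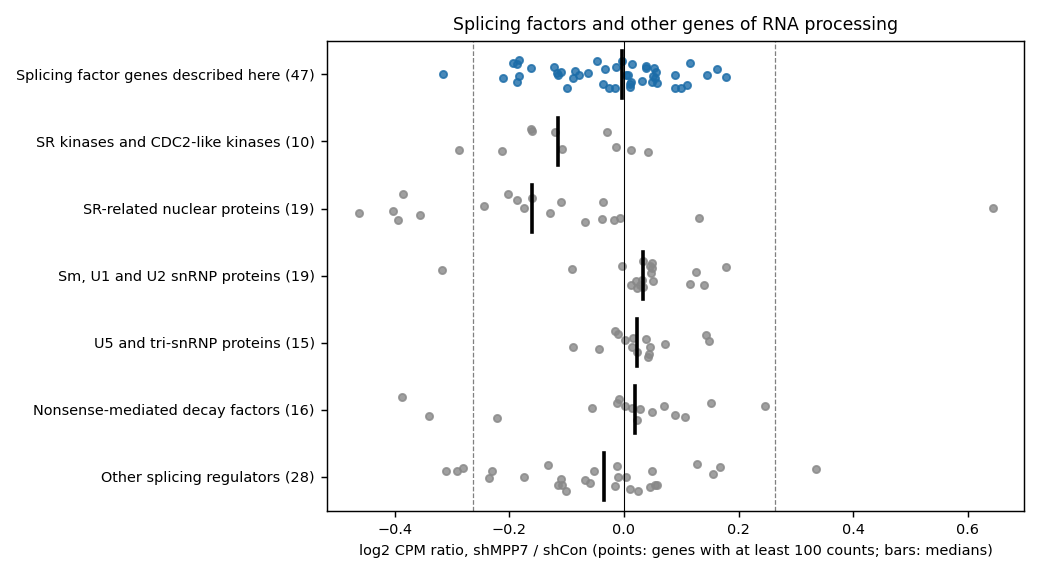
Log2 CPM ratio of shMPP7 to shCon for the 47 splicing factor genes (blue) and for the 6 other lists (grey), genes with at least 100 counts, with the median of each as a black bar. Dashed lines mark a fold of 1.2, and the SR-related proteins have the lowest median, at -0.16.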

How the data were processed

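The authors deposited 1 table with an estimated count and an FPKM value per gene and library, per the file headers. In the deposited FPKM values fragments are divided by transcript length and by library size. TopHat2 2.0.9, Cuffdiff and hg19 are named in the submitters' processing notes without a role, the counting tool and strand setting are not given in the sources used here, and 57895 of the 58233 gene IDs occur in GENCODE 29 (GRCh38), so the build is unsettled. Coordinates, lengths and GC contents come from GENCODE 29 through the gene ID.

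Counts were divided by the library total (CPM). CPM ratios carry exact Clopper-Pearson 95% intervals conditional on the summed, rounded count. Log2 ratios had 0.1 CPM or 1 FPKM added, which understates the ratio of low genes. The interval calculation was checked on simulated data. With 1 library per group no model was fitted, and edgeR 4.0.16 and DESeq2 1.42.0 gave scaling factors only. Names on several lines (215) were taken from the line with the largest mean, and no member was on several lines. Of the members, 23 had a fractional count, as when reads are shared with copies, and their values are less certain. Reads lack molecular identifiers, so intervals cover counting error only. The floor for a gene at 0 was 3 counts. The length and GC trend was quadratic in both, fitted over protein-coding genes. Promoters were matched by symbol for 48 of the 53 members.

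Members, lists and tests were chosen with earlier results of these data known. Genes given in full were the 6 highest and 6 lowest CPM ratios, the 6 largest differences between units, and 13 fixed names; in the other lists, the 2 highest and 2 lowest with at least 1000 counts.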

Additional observations from a re-analysis of the deposited data

How the results depend on the processing

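No paired analysis was possible because each group has 1 library, and for the same reason no library could be left out. The count of members lower by 1.2-fold in CPM was 1 as reported. It was 0 once the length and GC trend was removed and 0 without PTBP1, PTBP2 and PTBP3, an alternative chosen after seeing the data. At a fold of 1.1 the counts were 3 higher and 8 lower in CPM, 9 higher and 4 lower in FPKM, and 4 members differed between the units. At a fold of 1.5 there were 0 lower in CPM and 0 that differed between the units. With a pseudocount of 5 FPKM 0 members differed between the units, in place of 1. In the other alternatives run (scaling, minimum counts, minimum FPKM, other pseudocounts, summed lines, centred FPKM, centred difference) these counts did not move. The median log2 CPM ratio of the members ranged from -0.0091 to 0.029 over the alternatives, and the median log2 FPKM ratio from -0.0033 to 0.057. Of 27 members named by rule, 9 changed sign with the trend removed and at most 2 under another scaling. Counting error allowed CPM ratios of members to be read to within 1.71% for the deepest and 18.4% for PTBP2.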

Other observations

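Of the 124 pseudogene lines left out, 33 had a count above 0 and 2 reached 100 counts over both libraries. HNRNPA3P6 had 250 counts in shMPP7 and 190 in shCon, a CPM ratio of 1.28 (1.06 to 1.56), while its parent HNRNPA3 was at 0.933 (0.908 to 0.960). HNRNPA1P48 had 118 counts in shMPP7 and 105 in shCon, a ratio of 1.101 (0.836 to 1.44). HNRNPUL2-BSCL2, a readthrough gene that overlaps HNRNPUL2, had 2352 counts in shMPP7 and 2417 in shCon, more than HNRNPUL2 itself with 1191 in shMPP7 and 1174 in shCon.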
